A study of Mus musculus with 6 samples.

Results

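The mitotic cyclins and anaphase regulators described here are 10 genes, taken by symbol from a table of raw RNA counts with 11922 gene rows. They are the cyclin genes Ccna2, Ccnb1, Ccnb2 and Ccnf, the kinase genes Cdk1, Plk1 and Aurka, and Cdc20, Ube2c and Pttg1, whose products control the start of anaphase. All 10 were present in the table and all 10 passed the filter on low counts.

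The cells were splenic CD8+ T cells of C57BL/6J mice, purified on magnetic beads, in which both groups were activated with beads carrying anti-CD3 and anti-CD28 and grown with 100 units/ml of recombinant human IL-2. The vehicle group received water and the AOA group received 0.25 mM aminooxyacetic acid (AOA), an inhibitor of enzymes that need pyridoxal phosphate, the active form of vitamin B6. RNA was collected at day 7, and the same 3 mice gave the cells of the 3 vehicle and the 3 AOA libraries. The comparison of AOA with vehicle asks how the transcripts of activated CD8+ T cells differ when these enzymes are inhibited. Mice of both sexes, over 6 weeks old, were used in the experiments, with no statement of which gave these libraries.

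Cyclins are short-lived proteins that switch on cyclin-dependent kinases, and cyclin A and cyclin B bound to CDK1 carry a cell from the end of DNA replication into mitosis. The anaphase-promoting complex (APC/C), a ubiquitin ligase, then marks securin and cyclin B for destruction, so that separase can cut the cohesin rings holding sister chromatids together and the cell can leave mitosis. The transcripts of most of these genes are made late in the cell cycle, and activated T cells are known for a phase of rapid division. The transcript level of a gene in a culture combines how many cells hold the transcript and how much each cell holds. In bulk RNA, fewer cells of a type and less RNA per cell cannot be told apart.

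Total counts were 12881962 to 18934869 per vehicle library and 18696114 to 21997078 per AOA library. Vehicle replicate 2 stood apart from the other vehicle libraries on the second principal component, at -44.2 against 21.9 and 19.4. All 5 genes of the CD8 T cell list were present, namely Cd8a, Cd8b1 and the CD3 genes, which CD4 T cells also express. Their summed level was 2908 to 3737 CPM (counts scaled to a common library size) with vehicle and 3994 to 4644 CPM with AOA. Of these, Cd8a and Cd8b1 were called higher, with log2 fold changes of 1.03 and 0.64, and Cd3e, Cd3d and Cd3g were not called, at -0.27, -0.13 and -0.31. CD4 T cell markers summed to 158 to 210 CPM with vehicle and 33.0 to 54.3 CPM with AOA, and 3 of 4 were lower with AOA, among them Cd4 itself. Myeloid markers summed to 40.8 to 54.2 CPM with vehicle and 0.873 to 3.33 CPM with AOA, most of the vehicle level coming from Itgam, at 40.5 to 52.9 CPM. Itgam was lower with AOA, Lyz2 (means of 0.106 CPM with vehicle and 0.513 CPM with AOA) and Cd14 were too low to be tested, and Csf1r, Adgre1 and S100a8 were not in the table. B cell markers summed to 12.6 to 16.6 CPM with vehicle and 22.6 to 30.7 CPM with AOA, with Cd79b higher and Pax5 not in the table. NK cell markers summed to 145 to 308 CPM with vehicle and 128 to 213 CPM with AOA. Most of this came from Eomes, at means of 151 CPM with vehicle and 155 CPM with AOA, which was not called, at 0.04. Klrb1c was lower with AOA, from 41.7, 111 and 20.1 CPM in vehicle replicates 1 to 3 to a mean of 7.14 CPM. Ncr1 was too low to be tested, and Klra8 was not in the table. None of 5 erythroid markers was in the table. The part of these cell-type markers in the results below was not tested.

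The promoters of this family are shown first, because cell-cycle genes are known to share short elements near their start. The CCAAT box is bound by NF-Y. The cell-cycle homology region, most often written TTTGAA, is bound by the MuvB complex. The windows come from RefSeq (GRCm38.p6) and run from 250 bases before to 50 bases after the start. 9 of the 10 members had a window, the exception being Ccna2. Both elements were searched on both strands, as was a variant of the latter, TTCGAA. Matches can overlap, and among the member windows the only such case was a pair of CCAAT matches on opposite strands in Ube2c, at -186 and -183. The 150 bases before the start are printed for 6 members, among them cyclins, Cdk1 and both partners of the APC/C, each with 2 or more CCAAT matches in that stretch, 5′ to 3′ on the coding strand. Capitals mark the matches. A CCAAT on the other strand reads ATTGG here. A homology region on the other strand reads TTCAAA.
Ccnb1, chr13:100786487-100786636, minus strand: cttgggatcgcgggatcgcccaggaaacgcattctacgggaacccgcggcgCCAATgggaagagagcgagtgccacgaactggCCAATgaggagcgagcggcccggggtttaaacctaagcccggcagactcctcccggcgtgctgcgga
Ccnb2, chr9:70421555-70421704, minus strand: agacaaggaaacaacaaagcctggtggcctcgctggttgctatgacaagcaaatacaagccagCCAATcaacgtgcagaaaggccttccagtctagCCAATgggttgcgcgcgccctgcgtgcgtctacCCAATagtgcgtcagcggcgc
Ccnf, chr17:24251410-24251559, minus strand: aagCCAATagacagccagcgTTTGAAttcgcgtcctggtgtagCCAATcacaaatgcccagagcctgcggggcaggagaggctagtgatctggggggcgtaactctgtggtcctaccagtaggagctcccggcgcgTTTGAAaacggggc
Cdk1, chr10:69352913-69353062, minus strand: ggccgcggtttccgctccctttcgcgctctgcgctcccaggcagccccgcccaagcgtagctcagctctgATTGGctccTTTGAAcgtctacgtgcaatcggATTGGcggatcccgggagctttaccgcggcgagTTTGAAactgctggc
Cdc20, chr4:118437344-118437493, minus strand: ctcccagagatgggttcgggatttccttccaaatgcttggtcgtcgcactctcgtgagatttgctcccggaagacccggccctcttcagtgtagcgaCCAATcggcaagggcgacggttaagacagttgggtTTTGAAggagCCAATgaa
Ube2c, chr2:164769779-164769928, plus strand: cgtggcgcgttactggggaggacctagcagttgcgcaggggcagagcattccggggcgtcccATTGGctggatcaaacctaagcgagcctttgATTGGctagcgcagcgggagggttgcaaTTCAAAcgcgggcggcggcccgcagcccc

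Of the 8 windows of members that were higher with AOA, 8 held CCAAT, with 1 to 6 matches each, and 7 held TTTGAA, the exception being Ccnb1. None of the 8 held TTCGAA. Among all 32851 windows, 37.4% held CCAAT, 17.9% held TTTGAA, 1.56% held TTCGAA and 6.95% held both CCAAT and TTTGAA. Among the 11991 windows of genes tested these shares were 37.7%, 12.2%, 2.09% and 4.85%, while 7 of the 8 member windows held both. In Ccnb2 the 3 CCAAT matches began at -87, -54 and -21, and its TTTGAA matches lay at -167 and 5, outside the printed stretch. In Cdk1 a TTTGAA began 15 bases before the start and in Cdc20 18 bases before it, and both windows also held 2 or more CCAAT. In Plk1 and Aurka the TTTGAA lay after the start, at 31 and 33. The Pttg1 window held none of the 3 motifs, but 6 of its 10 annotated transcripts start 137 to 270 bases upstream of the start that this window uses. A match gives the presence of these letters and no more.

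Of the 10 members, 9 were higher and 1, Pttg1, was lower with AOA (edgeR quasi-likelihood test, Benjamini-Hochberg adjusted p under 0.05). Among all 11759 genes tested, 26.2% were called higher, 26.8% lower and 53.0% in either direction. In 9 members all 3 AOA libraries lay above all 3 vehicle libraries, and in Pttg1 all 3 lay below. Over all genes tested, 31.0% had all AOA libraries above and 31.1% had all below. All 10 members moved in the same direction in each of the 3 mice. The median log2 fold change was 2.38 over the members and -0.02 over all genes tested. A log2 fold change of 2 or more was found for 3.39% of the genes tested and for 9 of the 10 members. The 10 members together took 282 to 430 CPM of a vehicle library and 1809 to 2050 CPM of an AOA library. The smallest p that an exact permutation test of 3 against 3 libraries allows is 0.1, so p-values come from the fit across all genes.

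**Figure D1:**
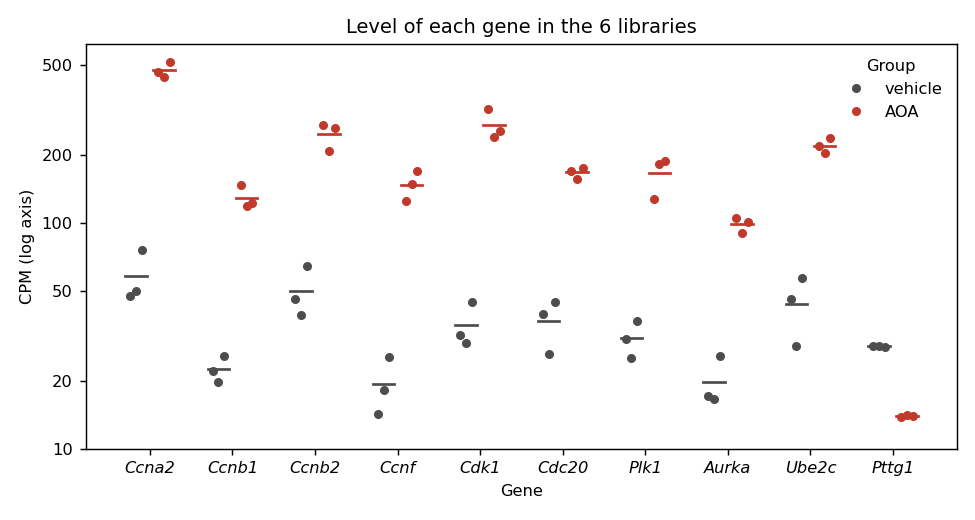
CPM of each of the 10 members in the 6 libraries, on a log axis, with vehicle and AOA libraries as points and the group means as bars. For 9 members every AOA point lies above every vehicle point, and for Pttg1 the order is turned, at 28.2 to 28.5 CPM with vehicle and 13.8 to 14.1 CPM with AOA.

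Among the cyclins, Ccna2 had the highest estimate of the family, within 1 standard error of Cdk1 and Ccnf, and without AOA replicate 3 the estimate of Cdk1 was higher (2.99 against 2.98). It encodes cyclin A2, which partners CDK2 in DNA replication and CDK1 at the entry into mitosis, and lies on chromosome 3 from 36564865 to 36573038 (GRCm38.p6, Entrez 12428). Ccna2 stood at 47.7, 50.02 and 76.4 CPM in vehicle replicates 1 to 3 and at 469, 443 and 519 CPM in AOA replicates 1 to 3. The lowest AOA library was several times the highest vehicle library. Mean Ccna2 was 58.0 ± 15.9 CPM with vehicle and 477 ± 38.3 CPM with AOA (SD, n = 3), a log2 fold change of 3.04 (SE 0.21, edgeR adjusted p = 1.51e-05). Its annotated span overlaps Exosc9, a gene of the RNA exosome with a log2 fold change of 1.74 (edgeR adjusted p = 3.09e-05), and whether the counting used strand is not stated.

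Ccnb1 and Ccnb2 encode B-type cyclins, the partners of CDK1 that drive mitosis itself. Ccnb1 (chromosome 13, 100778739 to 100786486, Entrez 268697) was at 22.1, 19.8 and 25.8 CPM with vehicle and at 147, 119 and 123 CPM with AOA. The groups did not overlap, and the mean moved from 22.6 ± 3.00 to 130 ± 15.3 CPM, a log2 fold change of 2.52 (SE 0.16, edgeR adjusted p = 1.37e-05). This was the smallest standard error among the 9 members that rose. Ccnb2 (chromosome 9, 70407689 to 70421554, Entrez 12442) was the more abundant of the pair, at 46.2, 39.3 and 64.4 CPM with vehicle and at 273, 209 and 265 CPM with AOA. It also showed no overlap between groups, with means of 49.98 ± 13.0 and 249 ± 34.7 CPM and a log2 fold change of 2.32 (SE 0.21, edgeR adjusted p = 4.36e-05). For both cyclin B genes the RefSeq annotation names a pseudogene copy, which is not among the rows of the table, so reads shared with a copy are a source of uncertainty.

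Ccnf encodes cyclin F, which binds no cyclin-dependent kinase and serves as the substrate-binding F-box protein of an SCF ubiquitin ligase. Ccnf (chromosome 17, 24223230 to 24251409, Entrez 12449) was at 14.3, 18.1 and 25.4 CPM with vehicle and at 126, 148 and 170 CPM with AOA. All AOA libraries were again well above the vehicle libraries. The means were 19.3 ± 5.65 and 148 ± 22.0 CPM, a log2 fold change of 2.93 (SE 0.22, edgeR adjusted p = 2.17e-05), close to those of Ccna2 and Cdk1.

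Cdk1 encodes the kinase that cyclins A2, B1 and B2 activate in mitosis. Cdk1 (chromosome 10, 69335146 to 69352912, Entrez 12534) was at 31.9, 29.5 and 44.7 CPM with vehicle and at 320 CPM in AOA replicate 1, 241 CPM in AOA replicate 2 and 257 CPM in AOA replicate 3. No vehicle library came near the AOA range. The means were 35.4 ± 8.14 and 272 ± 41.9 CPM, with a log2 fold change of 2.94 (SE 0.20, edgeR adjusted p = 1.51e-05). The difference within a mouse was 3.32 in mouse 1, 3.02 in mouse 2 and 2.52 in mouse 3 on the log2 scale.

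Plk1 encodes polo-like kinase 1, which acts in centrosome maturation, spindle assembly and the activation of CDK1. Plk1 (chromosome 7, 122159435 to 122169884, Entrez 18817) was at 30.7, 25.2 and 37.0 CPM with vehicle and at 128, 183 and 188 CPM with AOA. AOA replicate 1 was the lowest of its group here, although it was the highest of its group for Cdk1, Ccnb1, Ccnb2 and Aurka. The means of Plk1 were 31.0 ± 5.90 and 166 ± 33.0 CPM, a log2 fold change of 2.42 (SE 0.20, edgeR adjusted p = 3.15e-05). Aurka encodes aurora kinase A, a spindle-pole kinase that activates PLK1. Aurka (chromosome 2, 172356190 to 172370886, Entrez 20878) was at 17.1, 16.5 and 25.7 CPM with vehicle and at 106, 90.3 and 101 CPM with AOA. The groups were separate, at means of 19.8 ± 5.16 and 99.0 ± 7.92 CPM, with a log2 fold change of 2.32 (SE 0.19, edgeR adjusted p = 3.04e-05). Aurka overlaps Cstf1, a gene of messenger RNA 3′ end cleavage with a log2 fold change of 0.39 (edgeR adjusted p = 0.0288).

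Cdc20 encodes the co-activator that brings substrates to the APC/C at the metaphase to anaphase transition. Cdc20 (chromosome 4, 118432901 to 118437343, Entrez 107995) was at 39.6, 26.3 and 44.6 CPM with vehicle and at 170 CPM in AOA replicate 1, 157 CPM in AOA replicate 2 and 176 CPM in AOA replicate 3. The groups did not overlap. The means were 36.8 ± 9.46 and 168 ± 10.01 CPM, and the log2 fold change of 2.19 (SE 0.20, edgeR adjusted p = 4.36e-05) was the lowest estimate of the 9 members that rose, although without vehicle replicate 1 Aurka was lower (2.25 against 2.27). Cdc20 overlaps Elovl1, a gene of fatty acid elongation with a log2 fold change of 0.43 (edgeR adjusted p = 0.0440). Ube2c encodes the ubiquitin-conjugating enzyme that starts the ubiquitin chains the APC/C builds. Ube2c (chromosome 2, 164769929 to 164772902, Entrez 68612) was at 45.9, 28.5 and 57.3 CPM with vehicle and at 219, 204 and 239 CPM with AOA. Vehicle replicate 2 was again the lowest library. The means of Ube2c were 43.9 ± 14.5 and 220 ± 17.6 CPM, a log2 fold change of 2.33 (SE 0.24, edgeR adjusted p = 8.09e-05).

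Pttg1 was the exception of the family. It encodes securin, the inhibitor that holds separase inactive until the APC/C destroys it. Pttg1 (chromosome 11, 43420244 to 43427463, Entrez 30939) was at 28.5, 28.5 and 28.2 CPM with vehicle and at 13.8, 14.1 and 13.9 CPM with AOA. Every AOA library was about equally far below every vehicle library. The means were 28.4 ± 0.165 and 13.9 ± 0.134 CPM, which is 2.04-fold lower with AOA, a log2 fold change of -1.03 (SE 0.14, edgeR adjusted p = 3.15e-04). Within mice the log2 difference was -1.04, -1.02 and -1.01. These rest on 359, 450 and 520 counts with vehicle and 300, 266 and 276 counts with AOA. The coefficient of variation between libraries was 0.579% with vehicle and 0.961% with AOA, below the counting error of a single library of 4.79% and 5.97%. The spread between these libraries therefore understates the error of the Pttg1 levels. Of all genes tested, 14.3% had a log2 fold change at or below that of Pttg1, whereas each of the other 9 members lay above at least 97.3% of the genes tested.

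**Figure D2:**
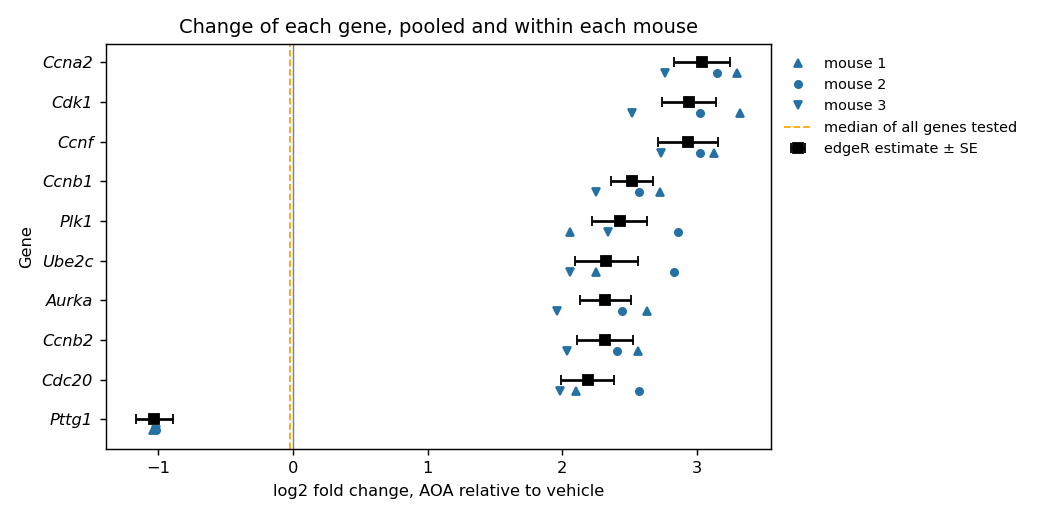
Log2 fold change, AOA minus vehicle, of each member with its standard error as a bar, and the difference within each of the 3 mice as points. The 9 members that rose lie between 2.19 and 3.04 and Pttg1 lies at -1.03, with its 3 mice almost on one another.

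The 9 members that rose shared a pattern among the libraries within a group. Vehicle replicate 3 was the highest vehicle library for all 9, and vehicle replicate 2, which stood apart on the second principal component, was the lowest for all but Ccna2 and Ccnf. AOA replicate 1 was the highest AOA library for Ccnb1, Ccnb2, Cdk1 and Aurka and the lowest for Ccnf and Plk1, so the order of the AOA libraries was not common to the family. The coefficient of variation between libraries was 13.3% to 33.0% with vehicle and 5.96% to 19.9% with AOA for these 9 genes. Counting error was smaller, at 3.4% to 6.0% with vehicle and 1.0% to 2.2% with AOA. The median difference over the 10 members was 2.59 in mouse 1, 2.70 in mouse 2 and 2.15 in mouse 3 on the log2 scale.

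Levels were compared between genes as RPKM, here the CPM divided by the deposited gene length in kilobases. With vehicle, Ube2c was the most abundant member at 47.2 ± 15.6 RPKM, followed by Ccnb2 at 32.4 ± 8.43, Cdc20 at 20.7 ± 5.30, Ccna2 at 20.6 ± 5.67 and Pttg1 at 16.3 ± 0.0947 RPKM. Then came Plk1 at 13.98 ± 2.67, Cdk1 at 12.4 ± 2.85, Aurka at 10.02 ± 2.61, Ccnb1 at 9.75 ± 1.29 and Ccnf at 6.22 ± 1.82 RPKM. Only 3 pairs of neighbours in this order had ranges that did not overlap, namely Ccnb2 over Cdc20, Ccna2 over Pttg1 and Ccnb1 over Ccnf. The ranges of the other neighbours overlapped, although within each of the 3 vehicle libraries Ube2c lay above Ccnb2, Plk1 above Cdk1 and Cdk1 above Aurka.

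With AOA, Ube2c was again the most abundant at 237 ± 18.9 RPKM, above Ccna2 at 170 ± 13.6, Ccnb2 at 162 ± 22.5, Cdk1 at 95.3 ± 14.7 and Cdc20 at 94.1 ± 5.61 RPKM. Plk1 followed at 75.1 ± 14.9, Ccnb1 at 55.9 ± 6.61, Aurka at 50.1 ± 4.01, Ccnf at 47.8 ± 7.10 and Pttg1 at 8.01 ± 0.0770 RPKM. Ranges did not overlap between Ube2c and Ccna2, between Ccnb2 and Cdk1, between Cdc20 and Plk1, or between Ccnf and Pttg1. Ccnb1 also lay above Aurka within each of the 3 AOA libraries, although their ranges overlapped. Pttg1 thus went from the middle of the order, at rank 5, to the last of 10.

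**Figure D3:**
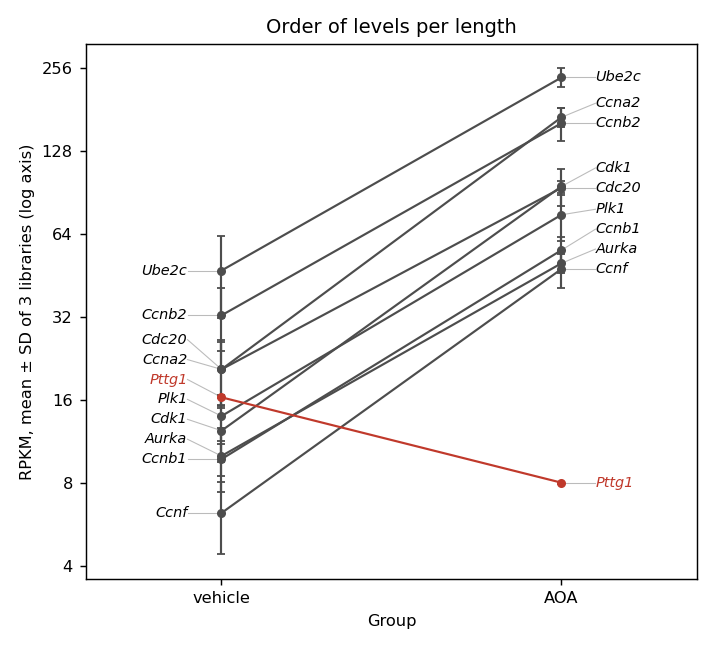
Mean RPKM of the 10 members with vehicle (left) and AOA (right) on a log axis, with bars for the SD of 3 libraries and a line joining the means of each gene. Ube2c leads in both groups at 47.2 and 237 RPKM, and the line of Pttg1 is the only one that falls, from 16.3 to 8.01 RPKM.

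Ratios between members that work together were taken within each library, where library size cancels. The ratio of Ccna2 to Ccnb1 in RPKM was 1.77, 2.08 and 2.44 with vehicle and 2.63, 3.08 and 3.48 with AOA. Every AOA library was above every vehicle library, by a mean of 0.55 on the log2 scale, where the means were 1.06 ± 0.23 and 1.60 ± 0.20 (SD, n = 3). Within mice 1 to 3 the log2 ratio of Ccna2 to Ccnb1 was higher with AOA by 0.57, 0.57 and 0.51. An exact permutation test of 3 against 3 libraries, which ignores the pairing by mouse, cannot give a p below 0.1. The difference is therefore a description. The ratio of Ccnb1 to Ccnb2 was 0.266 to 0.336 with vehicle and 0.309 to 0.377 with AOA. These groups overlapped, but within mice 1 to 3 the log2 ratio was higher with AOA by 0.17, 0.17 and 0.21. Cdc20 over Ube2c was 0.406 to 0.481 with vehicle and 0.385 to 0.407 with AOA. The groups overlapped here too, with log2 differences within mice of -0.15, -0.26 and -0.08, all on the same side. Plk1 over Aurka, at 1.28 to 1.61 with vehicle and 1.08 to 1.81 with AOA, overlapped and did not keep 1 direction, with -0.57 in mouse 1, 0.42 in mouse 2 and 0.37 in mouse 3.

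Separase is the target of securin, and its gene Espl1 moved against Pttg1. Espl1 was at 19.0, 26.2 and 31.9 CPM with vehicle and at 110, 145 and 160 CPM with AOA. The means were 25.7 ± 6.45 and 138 ± 25.8 CPM, a log2 fold change of 2.42 (SE 0.22, edgeR adjusted p = 4.48e-05). The ratio of Espl1 to Pttg1 in RPKM, a pair chosen after its values were seen, was 0.175, 0.241 and 0.296 with vehicle and 2.08, 2.71 and 3.01 with AOA. The transcript of the inhibitor was thus the more abundant per length in all vehicle libraries and the less abundant in all AOA libraries.

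**Figure D4:**
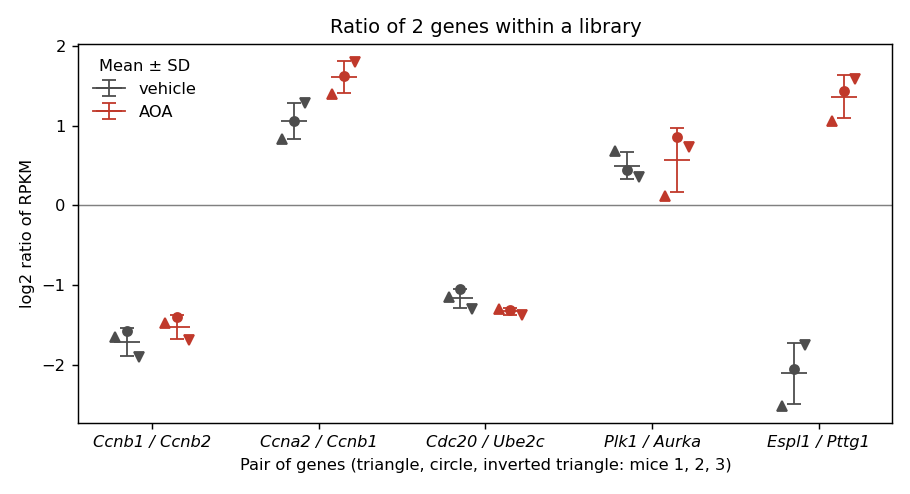
Ratios of RPKM between partner genes within each library on a log2 axis, with libraries as points marked by mouse and the mean and SD of each group as bars. Ccna2 over Ccnb1 and Espl1 over Pttg1 are higher in all 3 AOA libraries than in any vehicle library, and the other 3 ratios overlap between groups.

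The genes around the members were counted in lists of their complexes and regulators, to be read against the 26.2% higher, 26.8% lower and median of -0.02 over all genes tested. The APC/C, which Cdc20 activates and Ube2c serves, had smaller fold changes in its subunits than in these 2 members. Of its 14 subunit genes 10 were higher with AOA, none lower and 4 not called, with a median log2 fold change of 0.56. The largest were Anapc5 at 1.40, Anapc15 at 1.34 and Anapc11 at 1.09, each below every member that rose. Only 6 subunits were called higher without vehicle replicate 1 or without vehicle replicate 3, and without AOA replicate 1 Anapc16 was called lower. Among 9 other activators, inhibitors and enzymes of the APC/C, 7 were higher and 2 not called, with a median of 2.02. Fbxo5, which encodes the APC/C inhibitor EMI1, rose by 2.78 (edgeR adjusted p = 1.26e-05), Trip13, an ATPase that disassembles the mitotic checkpoint complex, by 2.71 and Mad2l1, the checkpoint protein that inhibits CDC20, by 2.56. Fzr1, which encodes CDH1, the co-activator that takes over from CDC20 late in mitosis, rose by 0.56 (edgeR adjusted p = 0.00753).

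Of 8 partners of the SCF ligases, to which cyclin F belongs, 4 were higher and 4 not called, with a median log2 fold change of 0.53. That share called is near the 53.0% called in either direction over all genes tested, of which 26.2% were called higher and 26.8% lower. The largest were Cks1b at 2.67, Skp2, another F-box protein, at 2.53 and Skp1a, the adaptor that F-box proteins bind, at 0.98. Of 14 genes of cohesin and its regulators, separase included, 11 were higher, 1 lower and 2 not called, with a median of 0.92. Esco2, a cohesin acetyltransferase, rose by 3.39, Sgo1, the shugoshin that protects centromeric cohesin, by 2.89 and Cdca5, which encodes sororin, by 2.71. Nipbl, the cohesin loader, fell by 0.75 on the log2 scale (edgeR adjusted p = 0.00427). Stag1, a cohesin subunit at 0.39, was called higher but had an adjusted p of 0.0550 with the mouse as a block. Stag1 also lost its call without vehicle replicate 1, vehicle replicate 3, AOA replicate 2 or AOA replicate 3. The same was true of Smc3, called higher at 0.53 with all libraries.

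Of 15 tested genes that control the entry into mitosis through CDK1, 8 were higher, 1 lower and 6 not called, with a median log2 fold change of 0.83. The share called in either direction is again near the 53.0% over all genes tested, of which 26.2% were called higher and 26.8% lower. Mastl, the Greatwall kinase, rose by 2.78, Cks2, a small subunit bound to CDK1, by 2.04 and Pkmyt1, an inhibitory kinase of CDK1, by 1.92. Wee1, another inhibitory kinase of CDK1, rose by 1.55 (edgeR adjusted p = 1.33e-04). The phosphatase genes Cdc25a and Cdc25c, whose products activate CDK1, were also higher, at 1.33 (edgeR adjusted p = 1.53e-04) and 1.87 (edgeR adjusted p = 2.33e-04). Their relative Cdc25b was not called, at -0.21, with means of 273 CPM with vehicle and 237 CPM with AOA. These phosphatase genes are named here after their values were seen. Cdkn1b, which encodes the inhibitor p27, fell by 1.32 on the log2 scale (edgeR adjusted p = 0.00130). Without vehicle replicate 2, Cdc25b was also called lower, at -0.51 (adjusted p = 0.0146), and 10 genes of the list were called higher. The 2 added were Cdkn1a, which encodes the inhibitor p21, at 0.68 (adjusted p = 0.0157) against -0.19 with all libraries, and Cdk7, at 0.53 (adjusted p = 0.0449) against 0.41. Of the paralogs Ccna1, Ccnb3, Cdk2 and Cdk3, the cyclin genes were not in the table, Cdk2 rose by 1.00 and Cdk3 was not called, at -0.96, except without vehicle replicate 2, when it was called lower.

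Of 10 tested relatives and activators of the aurora and polo kinases, 7 were higher, 1 lower and 2 not called, with a median log2 fold change of 1.83. Birc5, which encodes survivin, a partner of aurora B, rose by 3.03, Tpx2, the spindle activator of aurora A, by 2.51 and Plk4, the kinase of centriole duplication, by 2.38. Aurkb, which encodes aurora B, rose by 2.27 (edgeR adjusted p = 1.79e-05). Ajuba, which encodes a LIM protein that can activate aurora A, fell, from 3.18 to 0.298 CPM. The stress-responsive relatives Plk2 and Plk3, named here after their values were seen, were not called, at 0.07 and 0.11, but without vehicle replicate 2 Plk3 was called higher, at 0.64 (adjusted p = 0.0247).

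Of 17 genes of the MuvB, B-MYB, FOXM1, DREAM and NF-Y complexes, which are known to control the transcription of mitotic genes, 11 were higher and 6 not called, with a median log2 fold change of 0.93. Mybl1, a relative of B-MYB, rose by 2.65, Foxm1 by 2.63 (edgeR adjusted p = 3.04e-05), Tfdp1, the dimer partner of E2F proteins, by 2.19 and Mybl2, which encodes B-MYB itself, by 1.98. Rbl2, which encodes the DREAM pocket protein p130, was at -0.53 with an edgeR adjusted p of 0.0647, and was called lower with the mouse as a block (adjusted p = 0.0418). It was also called lower without vehicle replicate 3, Lin37 was without vehicle replicate 2, and Tfdp2 was without AOA replicate 2. E2f4, called higher at 0.52, lost its call without vehicle replicate 1, vehicle replicate 3, AOA replicate 2 or AOA replicate 3. Lin52, not called at 0.51, was called higher with no filter on low counts, without vehicle replicate 2 or without AOA replicate 2.

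**Figure D5:**
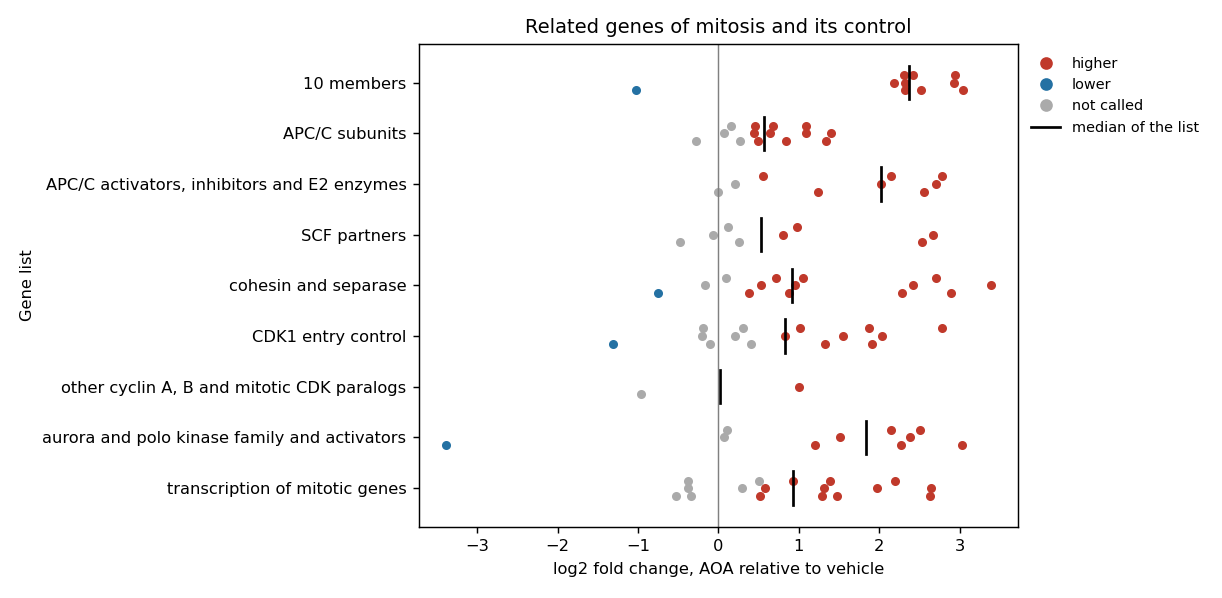
Log2 fold change, AOA minus vehicle, of each tested gene in the members and in the 8 related lists, coloured by its call, with a line at each median. The members have the highest median, 2.38, with Pttg1 alone below 0, and the APC/C subunits lie between -0.28 and 1.40.

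The genes outside the family whose pattern over the 6 libraries was most like the mean of the 10 members were Spag5, Aurkb, Tcf19, Diaph3 and Cdca8. Their root mean square distances from the centred mean profile were 0.0655, 0.0691, 0.0799, 0.0945 and 0.102 on the log2 CPM scale. Among the members themselves Aurka was nearest to that mean at 0.0958 and Pttg1 farthest at 1.63. With Pttg1 left out of the mean, a choice made after seeing the values, the nearest genes were Kif11, Cenph, Ttk, Ska3 and Bard1, at distances of 0.0672 to 0.0969.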

How the data were processed

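RNA of CD8+ T cells was sequenced from 6 libraries, 3 with vehicle and 3 with AOA, as stranded paired-end libraries. The authors deposited raw counts of uniquely mapped reads per gene, with Entrez number, symbol and length. The submitters' processing notes name bcl2fastq, STAR, featureCounts, DESeq2 and the mm10 build. Versions, annotation and the strand setting of the counting were not found in these sources. The table holds 11922 rows, of which 4 are at 0 in all libraries and 1 lacks a symbol.

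The deposited counts were fitted in edgeR 4.0.16 (R 4.3.3) after filterByExpr at its minimum count of 10, which left 11759 genes. TMM factors were applied, and AOA was compared with vehicle by the quasi-likelihood test in its robust form. P-values were adjusted over all genes tested by Benjamini and Hochberg's method, and those under 0.05 were called. The standard error of a log2 fold change is its size divided by the square root of F. CPM use TMM library sizes. Log2 CPM within mice and for profiles have a prior count of 2. Fits and calls were tested on simulated data in which few genes changed and libraries were not paired by mouse. That test does not cover a change as wide as the one found here. Other tools tried were DESeq2 1.42.0 and voom in limma 3.58.1. Scaling was repeated with DESeq2 size factors and with total counts, and filtering with none or with 10 CPM or more in 3 libraries. The mouse was added as a block, libraries were left out in turn, and a size rule of 1 on the log2 scale was applied.

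The pairing comes from the labels, which give both groups the same mouse numbers. Deviations from group means of same-mouse libraries correlated across genes at 0.0868, 0.189 and 0.194. No pair of replicates was alike within counting noise (chi-square per gene 10.0 to 70.9). AOA replicate 1 was at 70.9 and 64.3 against AOA replicates 2 and 3, which were at 10.5 against each other. Vehicle replicate 2 was at 55.2 and 59.9 against vehicle replicates 1 and 3, which were at 10.0. Counting errors cover counting only, since no molecular identifiers are mentioned for these reads. The members and lists were chosen with earlier results of these data known. Named genes are all members and, per list and direction, the 3 called genes of largest change whose higher group averaged 1 CPM or more. Fzr1, Fbxo5, Espl1, Wee1, Foxm1, Mybl2, Aurkb and the 5 genes nearest to the mean profile of the 10 members are named as well. Every other gene named with a value or a call was chosen after its values were seen, such as those whose call depends on 1 library or on the block, those that overlap a member, and the nearest profiles without Pttg1. Cell-type markers come from lists of their own. Positions are from the GRCm38.p6 annotation, which has the mm10 coordinates.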

Additional observations from a re-analysis of the deposited data

How the results depend on the processing

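Over 14 alternatives, of which the size rule changes no estimate, all 130 recomputed member fold changes kept their direction and their side of the threshold, with Pttg1 at -1.06 to -0.99 and the other 9 members at 2.03 to 3.31, and a largest adjusted p of 0.00285. With each library left out, the median over the members was 2.28 to 2.60, and over all genes 2519 to 3499 were higher and 2433 to 3297 lower, against 3086 and 3147. With the mouse as a replicate block 1 transcription-list gene, Rbl2, was lower and Stag1 was lost, and no other call in the lists or members changed. DESeq2 also called 1 transcription-list gene lower. With a log2 fold change of at least 1, 1418 genes were higher and 1663 lower, with 4 APC/C subunits, 2 SCF partners, 6 cohesin genes and 0 paralogs higher and 0 cohesin genes lower. With at least 10 CPM in 3 libraries 0 aurora and polo relatives were lower, since Ajuba was not tested. Leave-one-out fits gave 6 to 10 APC/C subunits higher and 0 to 1 lower, 1 to 2 CDK1 entry genes lower, 0 to 1 paralogs lower and 0 to 1 transcription-list genes lower. They also gave 9 to 11 cohesin genes and 10 to 12 transcription-list genes higher. The causes of these changes were not tested. Each group has 3 libraries from separate mice, and Pttg1, with 266 to 520 counts a library, has the largest counting error of the family in the AOA libraries, 5.97%.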
